A study of Mus musculus with 15 samples.

Results

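Water and ion transport was examined through 4 genes, *Aqp1*, *Atp1b1*, *Atp1b3* and *Slc12a2*, in 21EM15 cells, a mouse lens epithelial cell line, grown flat or as lens organoids. The genes were picked by name, with earlier results of these data known, and matched by symbol. All 4 were found among the 11677 genes measured in the cultures and among the 11299 genes measured in the microdissected regions, and 11041 genes were present in both tables. The 15 samples were labelled wild-type, with no treatment named. There were 4 samples of 2D cultures (a dish of subconfluent cells), 4 samples of 3D cultures (pooled organoids grown in non-adherent wells), and 4 internal and 3 external samples, each obtained by laser capture microdissection from sections of pooled organoids. A further external sample, which the study set aside because its expression differed from that of the other 3, was not analysed here. As that choice used the expression values, the spread of the external samples may be understated. The whole model rests on 1 cell line, and each replicate was a dish or a pool of organoids. Neither the labels nor the methods say whether these were grown independently, or whether the internal and external samples came from the same organoids, so the p-values measure the spread between these samples, which may be technical. RNA was measured by 3′ end sequencing, which gives about 1 read position per transcript whatever its length. Levels of different genes can thus be set side by side without a length correction. The share of reads that map uniquely may still differ by gene. The comparisons ask how expression differs between 3D and 2D growth and between the inside and the outside of the organoids. Differences are log2 (Fold Change) values, 3D minus 2D or internal minus external, and a gene was called where limma gave an adjusted p under 0.01 and the difference exceeded 1 in size.

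The lens has no blood vessels, and its cells stay clear by controlling their water and ion content. AQP1 is the water channel of the lens epithelium, MIP (AQP0) that of the fiber cells, and AQP5 is found in the lens as well. The sodium pump, or Na,K-ATPase, exports sodium in exchange for potassium. It is built from a catalytic alpha subunit and a beta subunit, encoded by *Atp1b1*, *Atp1b2* or *Atp1b3*, which is needed to bring the alpha subunit to the plasma membrane, and small FXYD proteins adjust its activity. *Slc12a2* encodes NKCC1, a cotransporter that uses the sodium gradient to bring sodium, potassium and chloride into the cell and with which shrunken cells regain volume.

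On the mouse genome GRCm38, *Aqp1* (ENSMUSG00000004655) lies on the plus strand at chr6:55336432-55348555, *Atp1b1* (ENSMUSG00000026576) on the minus strand at chr1:164437109-164458355 and *Atp1b3* (ENSMUSG00000032412) on the minus strand at chr9:96332655-96364442. *Slc12a2* is ENSMUSG00000024597. None of the 4 overlaps another gene on its strand. None shares a stretch of 50 nt with another gene in the last 300 nt of its transcripts, where the reads of this method fall.

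The promoters of *Aqp1*, *Atp1b1* and *Atp1b3* are shown because *Aqp1* and *Atp1b1* were both higher in the internal region whereas *Atp1b3* was not called. Each sequence is the 250 bases before the start site that RefSeq gives on GRCm38.p6, read 5′ to 3′ on the strand of the gene. For *Atp1b3*, with 2 starts in the table used, the upstream one was taken. The windows lie at chr6:55336049-55336298, chr1:164458356-164458605 and chr9:96364432-96364681, in that order. Capitals mark matches, on either strand, to the TATA box, searched as TATAAA and, in the same way, as TATATA, to the CCAAT box by these letters, or to the GC box, searched as GGGCGG.
Aqp1: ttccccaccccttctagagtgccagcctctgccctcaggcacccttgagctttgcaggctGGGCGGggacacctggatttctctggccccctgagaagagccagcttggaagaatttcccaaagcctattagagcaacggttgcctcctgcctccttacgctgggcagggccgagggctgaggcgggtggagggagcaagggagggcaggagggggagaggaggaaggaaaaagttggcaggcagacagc
Atp1b1: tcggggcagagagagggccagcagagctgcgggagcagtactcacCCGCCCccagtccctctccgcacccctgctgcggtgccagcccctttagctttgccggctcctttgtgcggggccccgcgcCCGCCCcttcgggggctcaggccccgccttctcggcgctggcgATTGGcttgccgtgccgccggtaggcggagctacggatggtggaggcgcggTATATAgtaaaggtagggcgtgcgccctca
Atp1b3: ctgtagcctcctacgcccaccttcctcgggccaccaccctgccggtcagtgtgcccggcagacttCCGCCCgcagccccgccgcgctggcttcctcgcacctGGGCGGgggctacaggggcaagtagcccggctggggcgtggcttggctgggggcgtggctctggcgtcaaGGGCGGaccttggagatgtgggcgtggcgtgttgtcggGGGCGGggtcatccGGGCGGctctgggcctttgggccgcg

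The 3 windows shown differed in their letters. Only *Atp1b1* held a TATA match, 30 bases before its start, and a CCAAT match, 81 bases before it. A TATA match was present in 15.6% of 32851 RefSeq promoter windows of the same length and a CCAAT match in 33.8%. GC boxes, present in 32.7% of windows, numbered 1 in *Aqp1*, 2 in *Atp1b1* and 5 in *Atp1b3*. The GC content was 62.0%, 70.4% and 73.6%, respectively, against a median of 52.4% over all windows. None of the 3 windows shown held TGGAAA (a core of NFAT5 sites, in 18.6% of windows), ACGTG (a core of hypoxia response elements, in 16.6%) or TGACTCA (an AP-1 site, in 4.5%). The window at the other *Atp1b3* start, with a GC content of 76.8%, held 0 TATA, CCAAT and GC boxes, 1 match to TGGAAA and 2 overlapping matches to ACGTG, 1 on each strand, so that the description of *Atp1b3* depends on the start. These matches describe letters, and no binding was measured here.

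The depth ranged from 7305053 to 9362587 reads per culture sample and from 4044230 to 11702504 reads per region sample. A count of 3 reads, taken as the smallest signal this depth can show, corresponded to at most 0.409 CPM (reads scaled to the size of the library) in the cultures and 0.802 CPM in the regions. Both limits cover counting error only. Cell type markers were looked up by name. Of 6 lens epithelium markers, *Pax6*, *Six3* and *Cryab* were listed in both tables, whereas *Foxe3*, *Cdh1* and *Cryaa* were not listed. The summed level of the 3 listed markers was 781 to 1109 CPM in 2D and 1327 to 1592 CPM in 3D, and 719 to 848 CPM in external and 959 to 1256 CPM in internal samples. *Cryab*, the small heat shock crystallin, is abundant in fiber cells too, so that it does not set the epithelium apart. The difference of *Pax6* was 0.69 between 3D and 2D (adjusted p = 0.0246) and 0.65 between regions (adjusted p = 0.00601), that of *Six3* 0.48 and 0.39 (adjusted p = 0.0267 and 0.071), and that of *Cryab* 0.68 and 0.43 (adjusted p = 0.0628 and 0.041), and none was called. The sums were thus higher in the same groups as *Aqp1*, and their part in the results was not tested. Of 9 lens fiber markers only *Bfsp1* was listed, in the regions alone, at 0 to 2.61 CPM in external and 1.65 to 4.35 CPM in internal samples. The study reports other genes known from fiber cells as higher inside, among them *Hsf4*, *Prox1* and *Atp1b1*. None of 8 endothelium and 6 erythroid markers was listed. In such bulk samples, fewer cells of a type and less RNA per cell cannot be told apart.

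*Aqp1* was the most abundant of the 4 genes in every sample and was the only one called in both comparisons. In 2D it stood at 8.88, 9.16, 9.47 and 8.81 log2 CPM, and in 3D at 11.07, 11.23, 11.82 and 11.57 log2 CPM. Every 3D sample lay above every 2D sample, and the gap between the groups exceeded the spread within either. The log2 (Fold Change) from 2D to 3D was 2.34 (SE 0.20, 95% interval 1.90 to 2.78, adjusted p = 0.000264), a 5.06-fold rise. These values rest on 4203 to 6054 reads per 2D sample and 16887 to 27840 reads per 3D sample. *Aqp1* thus went from rank 218 to rank 40 by mean level, and from 0.0558% ± 0.0113 to 0.276% ± 0.0642 of all reads (SD, n = 4 each).

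Within the organoids, *Aqp1* was also higher inside than outside. It was measured at 12.06, 12.13 and 11.85 log2 CPM in the external samples and at 13.27, 13.38, 13.26 and 13.26 log2 CPM in the internal samples. The 4 internal samples were nearly equal and all above the external ones. The difference was 1.28 (SE 0.14, 95% interval 0.99 to 1.57, adjusted p = 5.79e-07), or 2.42-fold. *Aqp1* was the gene of rank 6 in the internal region, with 1.04% ± 0.0504 of all reads (SD, n = 4), and of rank 17 in the external region, with 0.398% ± 0.0492 (SD, n = 3). In whole 3D cultures its share, 0.276% ± 0.0642 (SD, n = 4), lay below that of both regions. The study could not dissect the region between them, and prepared the RNA of whole and dissected organoids differently. The part of either was not tested. The internal samples had 4256391 to 11702504 reads and the external samples 4044230 to 6086089, and the part of depth in this difference was not tested. Levels here are shares of a library, so the amount of RNA per cell was not measured. The study describes nuclei in the center of the organoids as transcriptionally inactive, and the part of this was not tested either.

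**Figure D1:**
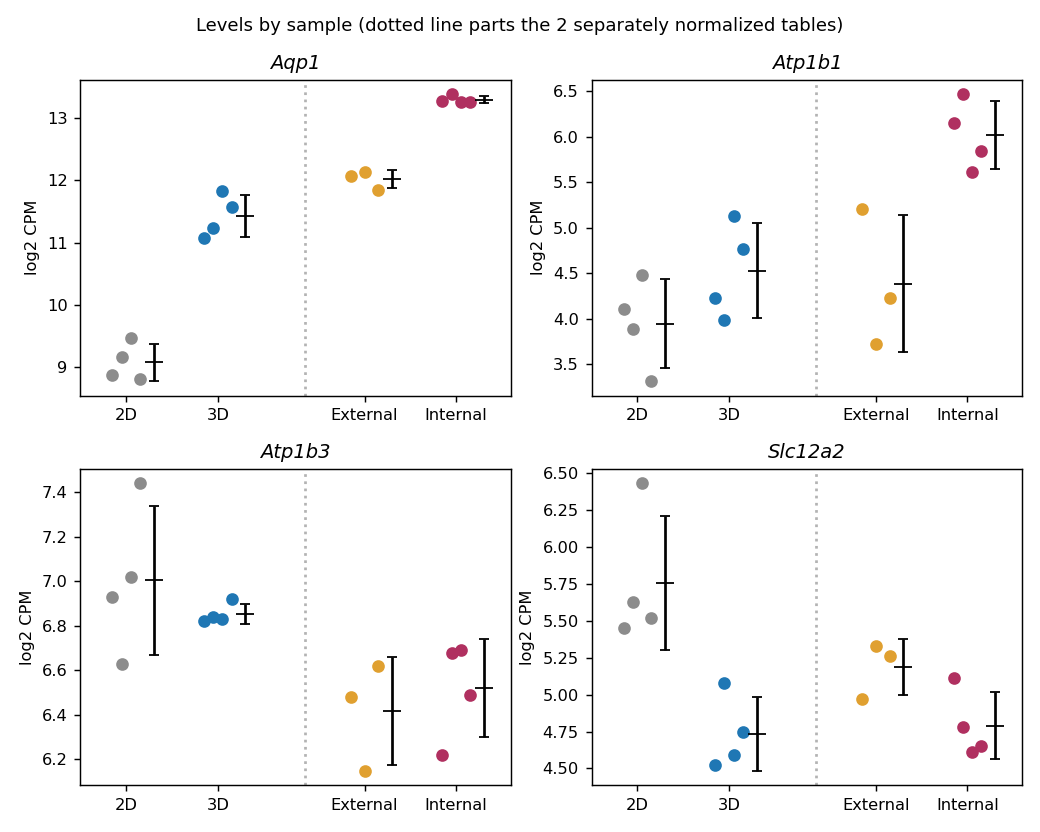
Level of each of the 4 genes in every sample, as log2 CPM on the vertical axis, by group on the horizontal axis. Points are samples, the bar beside them is the mean ± SD, and each panel has its own scale. *Aqp1* lies at 8.81 to 9.47 in 2D and at 11.07 to 11.82 in 3D. It lies at 11.85 to 12.13 in external and at 13.26 to 13.38 in internal samples. The groups compared do not overlap for *Aqp1*, whereas those of *Atp1b3* overlap in both comparisons. The tables on either side of the dotted line were normalized separately.

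The genes of the sodium pump beta subunits were each tested alone and not against each other. *Atp1b1*, the beta subunit gene common to most epithelia, was measured at 4.10, 3.89, 4.48 and 3.31 log2 CPM in 2D and at 4.23, 3.98, 5.13 and 4.77 log2 CPM in 3D. These groups overlapped, the difference of 0.58 (SE 0.31, 95% interval -0.10 to 1.26, adjusted p = 0.208) was not significant, and the interval ran from just below 0 to above 1. Without single samples the difference ranged from 0.37 (2D replicate 4 left out) to 0.77, and it was called in none of these fits. Between regions, *Atp1b1* was measured at 5.20, 3.72 and 4.23 log2 CPM in the external samples and at 6.15, 6.47, 5.61 and 5.84 log2 CPM in the internal samples. All internal samples exceeded all external ones, although the external replicate 1 came close to the lowest internal sample. The log2 (Fold Change) was 1.63 (SE 0.29, 95% interval 1.04 to 2.23, adjusted p = 0.000206), a 3.10-fold rise on 59 to 222 reads per external and 212 to 765 reads per internal sample. The call was lost when the variance was not fitted as a trend of the level (adjusted p = 0.0321).

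*Atp1b3*, which encodes another beta subunit, was not called in either comparison. It stood at 6.93, 6.63, 7.02 and 7.44 log2 CPM in 2D and at 6.82, 6.84, 6.83 and 6.92 log2 CPM in 3D, with a difference of -0.15 (SE 0.16, 95% interval -0.51 to 0.20, adjusted p = 0.537). The 3D samples were the tighter group, and they lay within the range of the 2D samples. In the regions it stood at 6.48, 6.15 and 6.62 log2 CPM outside and at 6.22, 6.68, 6.69 and 6.49 log2 CPM inside, with a difference of 0.11 (SE 0.18, 95% interval -0.27 to 0.48, adjusted p = 0.728). The sign of the latter turned without the external replicate 2 (-0.03). Both intervals exclude a 2-fold change of *Atp1b3* in either direction.

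The mix of the 2 subunit genes was set out sample by sample. *Atp1b2* was not listed in either table, so the share of *Atp1b1* was taken among the reads of *Atp1b1* and *Atp1b3*. It was 12.1%, 12.8%, 14.6% and 5.28% in the 2D samples and 14.1%, 12.0%, 23.4% and 18.3% in the 3D samples, and these groups overlapped. It was 29.1%, 15.4% and 15.8% in the external samples and 48.8%, 46.3%, 32.0% and 38.8% in the internal samples. All internal samples thus had a larger share of *Atp1b1* than all external samples, with means of 41.5% ± 7.61 (SD, n = 4) and 20.1% ± 7.8 (SD, n = 3). The 95% Wilson intervals of the external replicate 1 (26.0% to 32.5%) and the internal replicate 3 (28.6% to 35.7%) overlapped, and these intervals cover counting error only. The mix was described and not tested on its own.

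**Figure D2:**
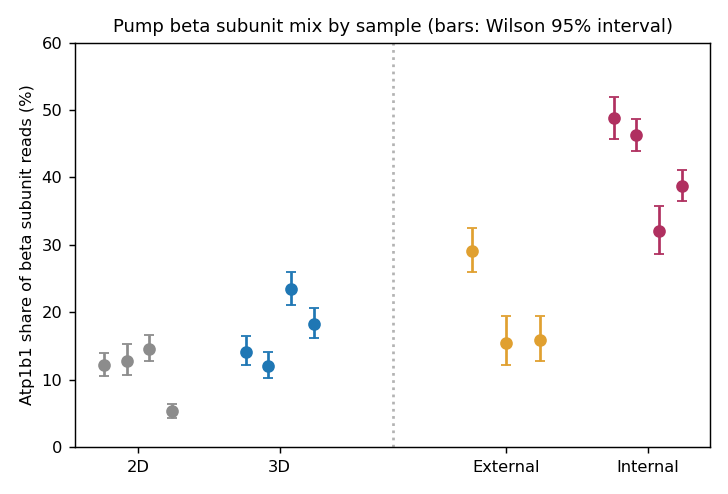
Share of *Atp1b1* among the reads of *Atp1b1* and *Atp1b3*, in percent on the vertical axis, for every sample by group on the horizontal axis, with Wilson 95% intervals, which cover counting error only, as bars. The internal samples lie at 32.0% to 48.8% and the external samples at 15.4% to 29.1%.

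*Slc12a2*, the cotransporter gene, was the only one of the 4 whose 3D samples all lay below the 2D samples. It was measured at 5.45, 5.63, 6.43 and 5.52 log2 CPM in 2D and at 4.52, 5.08, 4.59 and 4.75 log2 CPM in 3D. The groups did not overlap, and the 2D replicate 3 was the highest sample. The log2 (Fold Change) was -1.02 (SE 0.23, 95% interval -1.53 to -0.51), but its adjusted p of 0.0137 missed the threshold of 0.01, so that it was not called. Between regions, *Slc12a2* stood at 4.97, 5.33 and 5.26 log2 CPM outside and at 5.11, 4.78, 4.61 and 4.65 log2 CPM inside. These groups overlapped through the internal replicate 1, and the difference of -0.40 (SE 0.24, 95% interval -0.90 to 0.11, adjusted p = 0.269) was not significant.

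Of the 4 genes, 1 was called higher and 0 lower in 3D against 2D, *Aqp1*, where 4.43% of all genes were called (2.92% higher and 1.51% lower). In internal against external samples, 2 of the 4 were called higher, *Aqp1* and *Atp1b1*, and 0 lower, where 7.62% of all genes were called (3.27% higher and 4.35% lower). Groups that did not overlap were found for *Aqp1* and *Slc12a2* in the cultures and for *Aqp1* and *Atp1b1* in the regions. Over all genes, 24.0% had non-overlapping groups in the cultures and 29.0% in the regions, so that a lack of overlap was common. The study itself names *Aqp1* among its genes elevated in 3D and *Atp1b1* among those elevated inside. The 4 genes were chosen with such results known, so their counts are a description and show no excess over all genes.

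The order of the 4 mean levels was the same in 2D, 3D and the external region and differed in the internal region. In 2D it was *Aqp1*, *Atp1b3*, *Slc12a2* and *Atp1b1*, with means of 9.08, 7.01, 5.76 and 3.95 log2 CPM and no overlap between neighbours. In 3D the order was the same, but *Slc12a2* (4.73 log2 CPM) and *Atp1b1* (4.53 log2 CPM) overlapped. In the external region *Slc12a2* (5.18 log2 CPM) and *Atp1b1* (4.38 log2 CPM) overlapped as well. In the internal region *Atp1b1* (6.02 log2 CPM) stood above *Slc12a2* (4.79 log2 CPM) without overlap, and overlapped with *Atp1b3* (6.52 log2 CPM).

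The same comparisons were then made for 77 genes in 5 lists that surround the 4 genes in function. These lists were also chosen with earlier results of these data known, so counts over them are a description. In the cultures 35 were in the table, of which 3 were called higher (*Aqp1*, *Fxyd1* and *Atp2b4*) and 0 lower, against 2.92% and 1.51% of all genes. The median log2 (Fold Change) over all genes was -0.03. In the regions 36 were in the table, of which 6 were called higher (*Aqp1*, *Atp1b1*, *Fxyd1*, *Slc4a3*, *Slc4a8* and *Slc6a6*) and 0 lower, against 3.27% and 4.35% of all genes. The median over all genes was 0.04. A gene of the pump list is not reported, so these counts do not cover that list in full. At an unadjusted p under 0.05 in limma, 5 genes of the lists were higher and 5 lower in the cultures, where 16.7% of all genes were higher and 17.0% lower at that p. In the regions 12 were higher and 4 lower, where 16.1% of all genes were higher and 17.5% lower. Fits with voom weights called 3 genes higher in the cultures and 5 in the regions, where *Slc4a8* was lost, and 0 lower in either comparison. With no variance trend, *Atp1b1*, *Fxyd1* (adjusted p = 0.035), *Slc4a3* (adjusted p = 0.0148), *Slc4a8* (adjusted p = 0.038) and *Slc6a6* (adjusted p = 0.0227) were not called between regions, and *Aqp1* was the 1 that stayed called.

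Among the sodium pump subunits and FXYD regulators, 4 of the 13 reported here were in the culture table, with 1 called higher, and 5 of 13 were in the region table, with 2 called higher. No median is given for this list, since it is not reported in full. *Fxyd1*, which encodes phospholemman, a small pump regulator, was among the calls in both comparisons. It had 5, 0, 1 and 0 reads in the 2D samples and 52, 27, 49 and 34 reads in the 3D samples. The mean level in 2D was below 3 reads, and against that floor, averaged over the 2D samples, it was at least 14.8-fold higher in 3D. Its mean of 0.16 CPM in 2D also lay below the 0.2 CPM at which the authors kept genes, so that its 3D samples brought it into the table and its call in the cultures, 1 of the 3, is a description. It had 0, 18 and 14 reads in the external samples and 121, 200, 117 and 261 reads in the internal samples. The log2 (Fold Change) was 3.70 (SE 0.66, adjusted p = 0.000204) and was 2.44 without the external replicate 1, where no read allows a level of up to 0.494 CPM. *Fxyd5*, which encodes dysadherin and was named after its values were seen, lay at 7.64 to 8.07 log2 CPM outside and 6.63 to 7.24 log2 CPM inside. Its difference of -0.94 (SE 0.17, adjusted p = 0.000203) passed the adjusted p but not the threshold of 1.

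Of 12 aquaporins only *Aqp1*, *Aqp5* and *Aqp11* were listed, in both tables, and *Mip* was in neither. *Aqp5* stood at 3.30, 3.94, 6.09 and 4.78 log2 CPM in 2D and at 3.54, 4.08, 4.85 and 4.88 log2 CPM in 3D. The 2D replicate 3 was the highest and the groups overlapped (difference -0.19, SE 0.53, adjusted p = 0.833), with the sign turning to 0.33 without that sample. Between regions the *Aqp5* difference was 0.08 (SE 0.28, adjusted p = 0.867), and its sign also depended on single samples. *Aqp11*, named after its values were seen, had 7 to 25 reads per culture sample and 1 to 47 reads per region sample and was not called.

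Of the cation-chloride cotransporters and their kinases, 6 of 15 were measured in the cultures and 8 of 15 in the regions, and 0 were called in either comparison. The median log2 (Fold Change) was -0.40 from 2D to 3D and -0.15 from external to internal. *Wnk1* and *Stk39*, named after their values were seen, encode kinases of the cascade that phosphorylates NKCC1. In the cultures *Wnk1* was at -0.48 (SE 0.15, adjusted p = 0.0462) and *Stk39* at -0.71 (SE 0.17, adjusted p = 0.017). In the regions *Wnk1* was at -0.39 (SE 0.13, adjusted p = 0.0296) and *Stk39* at 0.45 (SE 0.24, adjusted p = 0.188).

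Among the calcium, proton and bicarbonate transporters, 12 of 23 were measured in the cultures (1 called higher, median 0.17) and 11 of 23 in the regions (2 called higher, median 0.37). *Slc4a3*, an anion exchanger gene, was measured at 3.73, 4.51 and 4.84 log2 CPM outside and at 5.99, 5.78, 5.84 and 5.85 log2 CPM inside (difference 1.51, SE 0.25, adjusted p = 0.000109). *Slc4a8*, a sodium-driven chloride/bicarbonate exchanger gene, was measured at 4.27, 3.90 and 3.93 log2 CPM outside and at 4.95, 5.16, 5.10 and 6.20 log2 CPM inside (difference 1.32, SE 0.29, adjusted p = 0.002). The internal replicate 4 was the highest, and without it *Slc4a8* was no longer called (1.04, adjusted p = 0.0127). It was not called without the external replicate 2 (1.25, adjusted p = 0.0152), with voom weights (1.39, adjusted p = 0.0119), with no variance trend (adjusted p = 0.038) or with a block for replicate numbers (1.04, adjusted p = 0.0225) either. Neither exchanger was called in the cultures, with differences of 0.62 (SE 0.33) for *Slc4a3* and -0.14 (SE 0.23) for *Slc4a8*.

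*Atp2b4*, a plasma membrane calcium pump gene, had 10, 8, 3 and 10 reads in 2D and 35, 41, 60 and 70 reads in 3D (difference 2.61, SE 0.39, adjusted p = 0.00239). The call was lost without the 3D replicate 3 (adjusted p = 0.0135) or 4 (adjusted p = 0.0136). In the regions its difference of 2.13 (SE 0.61, adjusted p = 0.014) was not called. It was 1.39 without the external replicate 1, and 2.84 and called without the external replicate 3 (adjusted p = 0.00323). The end of its transcripts shares stretches of 50 nt with 74 other genes, so that its counts are uncertain.

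The cell volume and osmolyte genes had a median of -0.45 in the cultures, where 10 of 14 were measured and 0 called. In the regions 9 of 14 were measured, with a median of 0.31, and 1 was called higher. This was *Slc6a6*, which encodes the taurine transporter and overlaps 1 predicted gene on its strand, at 6.57, 5.70 and 6.17 log2 CPM outside and 7.36, 7.63, 7.23 and 7.13 log2 CPM inside. All internal samples were higher (difference 1.19, SE 0.19, adjusted p = 6.88e-05), but without the external replicate 2 the difference of 0.97 did not reach the threshold of 1. In the cultures the *Slc6a6* groups overlapped (-0.41, SE 0.43, adjusted p = 0.54), and the difference was -0.88 without the 2D replicate 2 (adjusted p = 0.0386).

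**Figure D3:**
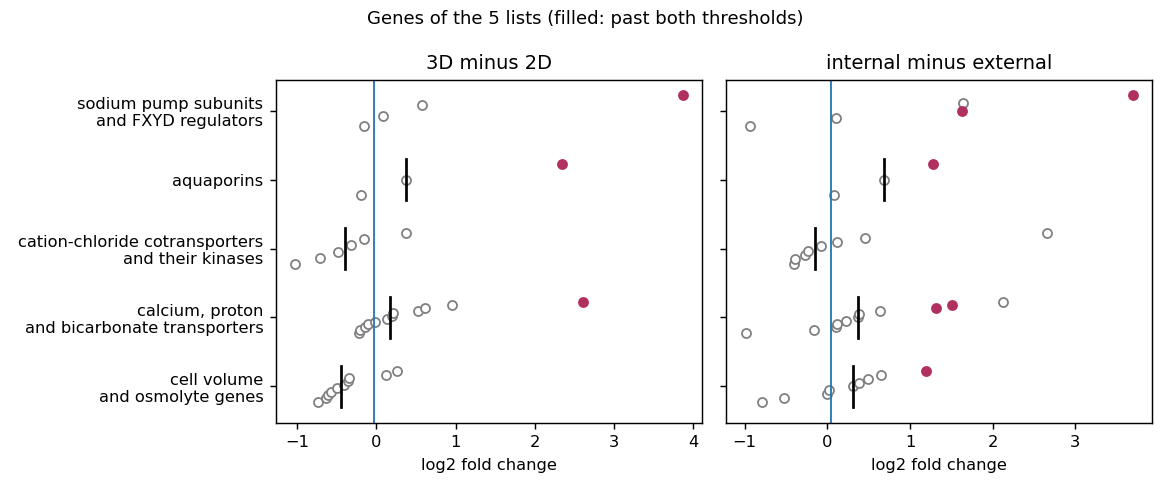
Log2 fold change of the measured genes of each list on the horizontal axis, for 3D minus 2D (left) and internal minus external (right). Circles are genes, filled where called, black bars are list medians (not drawn for the pump list, which is not complete) and the blue line is the median over all genes (-0.03 and 0.04). The filled circles, 3 on the left and 6 on the right, all lie above 1.

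**Figure D4:**
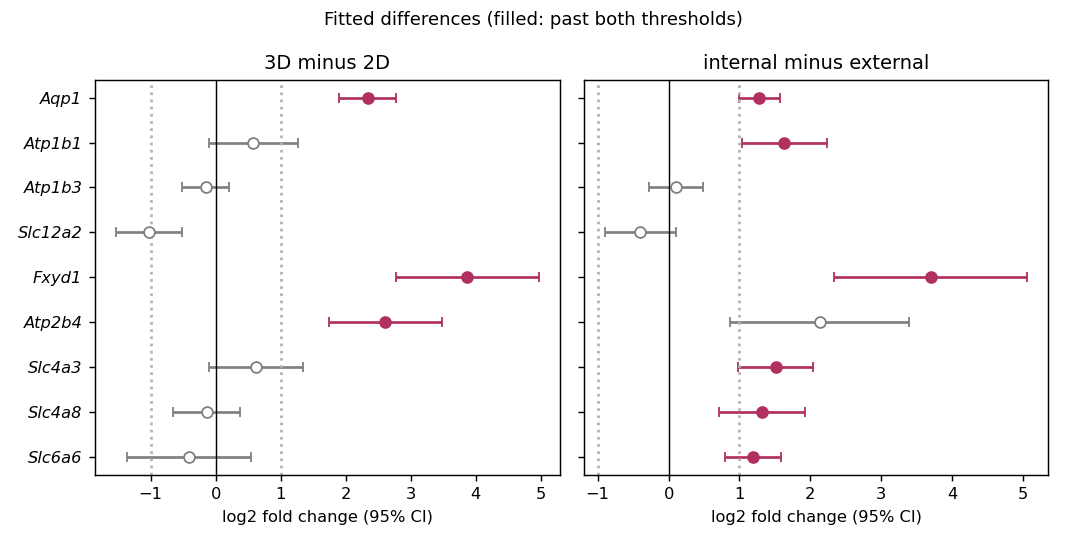
Log2 fold change with its 95% interval on the horizontal axis for the 4 genes and the other genes called from the lists, in rows. Filled points passed both thresholds and dotted lines mark a change of 1 in either direction. *Aqp1* and *Fxyd1* are filled in both panels, and the interval of *Atp1b3* spans 0 in both.

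Genes with a pattern like that of each of the 4 were sought among the 6496 genes that averaged 4 log2 CPM or more in both tables. Likeness was the root mean square difference of gene-centred log2 CPM over the 8 culture samples or the 7 region samples, whichever was larger. The closest to *Aqp1* were *Tgfb2* (0.286), *Enpp5* (0.286) and *Porcn* (0.303). By this choice their values follow those of *Aqp1*. The differences between 3D and 2D were 2.07, 1.96 and 2.75 and those between regions 1.49, 1.59 and 0.84, in the same order. The closest to *Atp1b1* were *Col6a1* (0.374), *Ablim1* (0.376) and *Cd59a* (0.379), a looser likeness. Those closest to *Atp1b3*, *Api5* (0.100), *Sptlc2* (0.143) and *Cnot7* (0.149), had differences between -0.27 and 0.19 in the 2 comparisons. The closest to *Slc12a2* were *Pcnt* (0.185), *Zmat3* (0.224) and *Serbp1* (0.226). Their differences between 3D and 2D were -0.90, -0.77 and -0.71, and none of the 3 reached a change of 1.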

How the data were processed

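The authors used sense reads after trimming, with alignment to GRCm38.p6 by STAR 2.7.8a, assigned uniquely mapped reads to genes with featureCounts 1.6.0 and kept genes over 0.2 CPM. The annotation release is not given in the sources used here. The authors deposited log2 CPM values for each sample (prior of 2.0 reads on average) in 2 separately normalized tables, so comparisons were made within a table. This prior understates changes of low genes. The deposited columns of the authors' own fold changes and p-values were not used. Whole reads were recovered from the spacing of the log2 values, for 100.0% of values within 0.05 reads, and give the depths and read numbers.

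Differences (3D minus 2D, internal minus external) were tested two-sided with limma 3.58.1 in R 4.3.3, with a variance trend, as the values were deposited on a log2 scale, and a fit with voom weights on the recovered reads was an alternative. Adjustment was by Benjamini-Hochberg over all genes of a table, and a call needed a change of more than 1 in log2 units, up or down, and an adjusted p below 0.01. The procedure was run on simulated counts with the same dispersion for every gene, which checks the code and not the calls made here. Other computations used Python 3.11.15, pandas 2.3.3, numpy 2.4.6, scipy 1.17.1 and matplotlib 3.10.9. The 4 genes and the gene lists were chosen with earlier results of these data known. Besides the 4 genes, the text names the list genes called in either comparison, *Mip*, *Aqp5*, *Atp1b2* as the remaining beta subunit, and the 3 genes nearest in pattern to each of the 4; other names are marked, apart from the cell type markers, which are from lists of their own. A further gene of the lists is not reported here. Positions are from GENCODE vM21, in which 11676 of 11677 and 11298 of 11299 gene IDs were found. Promoters of 3 of the 4 genes are shown, from RefSeq; that of *Slc12a2* was not analysed here. The alternatives left out the variance trend or the fold change threshold, or used an adjusted p of 0.05, a robust prior, a minimum mean of 1 log2 CPM, median centring, priors of 0.5 and 10 reads, those voom weights, a replicate block, and leaving out each sample in turn.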

Additional observations from a re-analysis of the deposited data

Results flagged for a closer look

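Among 69 groups of 4 samples checked, 4 had a sample whose gap to the nearest other sample exceeded Dixon's 95% critical value. Chance alone gives about 1 in 20 such groups. *Aqp1* in the internal replicate 2 was at 13.38 log2 CPM, the others being at 13.26 to 13.27, so that this gap is small and comes from a very tight group. *Atp2b4* in the 2D replicate 3 was at -0.76 log2 CPM (3 reads), the others being at 0.36 to 0.41. *Slc4a8* in the internal replicate 4 was at 6.20 log2 CPM (886 reads), the others being at 4.95 to 5.16. *Aqp5* in the internal replicate 3 was at 4.63 log2 CPM (107 reads), the others being at 5.61 to 5.73.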

How the results depend on the processing

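*Aqp1* was called in both comparisons under every alternative run, with values of 2.21 to 2.47 and 1.20 to 1.33 when single samples were left out. *Atp1b1* between regions lost its call only with no variance trend (1.63, adjusted p = 0.0321), and was called with each sample left out (1.30 to 2.04). *Slc12a2* in 3D was called at an adjusted p of 0.05 (-1.02), and ranged from -1.14 to -0.80 with single samples left out. *Atp1b3* between regions ranged from -0.03 to 0.21 without single samples. The difference of log2 *Atp1b1* minus *Atp1b3* was 0.38 to 0.92 between cultures and 1.33 to 1.91 between regions without single samples. Over the lists, an adjusted p of 0.05 called 1 gene lower in 3D. In the regions no variance trend left 1 called higher, and 2 were called lower with no fold change threshold, 1 with median centring and 0 to 1 without single samples. Over all genes in the cultures, calls higher were 644 at an adjusted p of 0.05 and 112 to 483 without single samples, against 341, and calls lower were 334 at that p, 315 with no fold change threshold and 49 to 287 without single samples, against 176. In the regions, calls higher were 588 with no fold change threshold and 117 with no variance trend, against 370, and calls lower were 890 and 207, against 491. Signs turned, for genes not called, without single samples, whose ranges were -0.30 to 0.02 for *Slc4a8*, -0.60 to 0.33 for *Aqp5* and -0.09 to 0.08 for *Cnot7* in the cultures, and -0.08 to 0.40 for *Aqp5*, -0.01 to 0.24 for *Api5* and -0.10 to 0.03 for *Cnot7* in the regions. The cause of these shifts was not tested.

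With the replicate number as a block, *Aqp1* was at 2.34 and 1.29 and *Atp1b1* at 0.58 and 1.70 (adjusted p = 0.0017 between regions), *Slc4a8* lost its call between regions (1.04, adjusted p = 0.0225) and *Aqp5* there turned to -0.03. Deviations of same-numbered samples had correlations of 0.005 to 0.503 (cultures) and -0.065 to -0.044 (regions), and nothing in the labels says that the numbers pair the samples.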
